A study of Homo sapiens with 26 samples.

Results

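The comparison described here is the knockdown of BRDT in TE6 cells, an established cell line from a human esophageal squamous cell carcinoma (ESCC). It comprised 4 of the 26 mRNA-seq libraries of the series, chosen by their labels alone. Of these, 2 came from cells transfected with a control small interfering RNA (siCont) and 2 from cells transfected with an siRNA against BRDT (siBRDT). The labels give BRDT knock-down as the only difference between the groups, and TE6 as the line in both. All cells were grown in the same serum-containing medium and collected 48 h after transfection. The same table holds 2 libraries of TE6 cells with an siRNA against TP63 (siTP63), measured against the same siCont libraries. BRDT was also knocked down in a second ESCC line, KYSE180, with 3 siCont and 3 siBRDT libraries in a separate table. The sources used here do not say whether replicates were separate cultures, so p-values measure only the spread between these libraries, which may be technical.

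BRDT belongs to the BET family of proteins, which bind acetylated histones through bromodomains and recruit the machinery of transcription elongation. It is normally made in male germ cells, where it is needed for the formation of sperm, and it is made aberrantly in some tumors. In squamous epithelium the transcription factor p63, encoded by TP63, maintains the basal state with its keratins and its attachment to the basement membrane. The interferon response, the largest rise described below, is the program by which cells that sense viral RNA, or receive interferon from neighbours, induce antiviral effector genes through STAT and IRF factors.

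The siRNAs designed for the study are shown because they define the treatment. The sources do not say which of them, or whether a mixture, was used in these libraries. Each sense strand is printed 5′ to 3′ as listed by the authors.
Non-targeting siRNA #5, with no match: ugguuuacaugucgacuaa
BRDT #2, exon 2 at chr1:91962840-91962858: caaaucaacuucaguaucu
BRDT #3, exon 7 at chr1:91978170-91978188: gaaaauggauaaccaagaa
BRDT #4, exon 8 at chr1:91979663-91979681: guagagagaacacuaauga
BRDT #18, exon 10 at chr1:91981008-91981026: gagauaaacuugggcgagu
The positions are on the plus strand of hg38, and all 4 sites lie in the coding sequence of BRDT, in a transcript of 19 exons. Among the transcripts of GENCODE release 44, each of the 4 BRDT sequences matched BRDT and no other gene over its whole length, and the non-targeting sequence matched none. Imperfect matches were not searched.

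The siCont libraries held 12874098 and 13053642 reads and the siBRDT libraries 11039140 and 10297348 reads. All values below are normalised read counts, in which each library had been scaled by its own size factor and 1 read was worth 0.861 to 1.20. A gene without a read could thus have had a value of up to 3.58 by counting error, taken as 3 reads. Across 13333 tested genes the log2 values correlated with r = 0.993 between the siCont libraries, with r = 0.982 between the siBRDT libraries, and with r = 0.951 to 0.963 between the groups. The library siBRDT replicate 1 stood apart in its silent genes: 2674 genes had reads in it and in none of the other 5 TE6 libraries, against 68 to 199 genes for each of those. These genes held 7513 reads, 0.0681% of that library, with a median of 2 and at most 34 reads each. Genes with a mean value under 10 over the 6 TE6 libraries were not tested, and counts of list members below are also given without this library where that moves them by more than 1.5 times. The squamous markers KRT5, KRT14, TP63, KRT17, KRT6A, PERP and SFN ranged from 1134 to 33630 in the 4 libraries, so the markers that define the labelled cell type were present.

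BRDT itself, at chr1:91949343-92014426 on the plus strand, was measured at 240.9 and 242 in siCont and at 55.03 and 46.59 in siBRDT cells. The groups did not overlap, and both siBRDT values were low. The log2 fold change was -2.23 ± 0.17 (SE), with limma adjusted p = 1.7e-06, so that 1 unit is a change by a factor of 2. A remainder of BRDT mRNA was thus still present at 48 h, and in bulk RNA fewer cells with a transcript and less of it per cell cannot be told apart. In siTP63 cells BRDT had a log2 fold change of -0.09 and was not called. Among 19 genes of BET proteins and the elongation factor P-TEFb, BRDT had the lowest log2 fold change. The related BET genes BRD2 (3551 and 3367 in siCont, 2229 and 3197 in siBRDT) and BRD3 (174.1 and 192.9 against 186.7 and 191.1) had log2 fold changes of -0.37 and 0.04 and were not called. Of the elongation factors, ELL2 fell by 1.04 and CCNT1, the cyclin of P-TEFb, by 0.82 on the log2 scale, whereas HEXIM2, an inhibitor of P-TEFb, rose by 1.01. Over the list 2 genes were called higher and 4 lower. With the trends on transcript length and GC content described below removed, none was called higher and 2 lower, and HEXIM2, at 0.47, was not called. ELL2 was not called with libraries scaled to upper quartiles of the genes above 0, and CCNT1 was not called under that scaling, with the trends removed or without siCont replicate 2.

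A gene was called when its limma adjusted p was under 0.05 and its log2 fold change at least 0.5 in size. Of the 13333 genes, 2074 (15.6%) were called higher and 2419 (18.1%) lower in siBRDT cells, together 33.7%. These shares are the background for each gene list below. With libraries scaled to equal upper quartiles of the genes above 0, 2712 genes (20.3%) were called higher and 586 (4.4%) lower, which moved the lower share of the calls from 53.8% to 17.8% and the median of all genes by 0.276. That quartile includes the silent genes of siBRDT replicate 1, and over the tested genes alone the same scaling gave 2250 (16.9%) higher and 2186 (16.4%) lower. The fold changes also followed transcript length and base composition. The 3275 genes with the shortest transcripts had a median log2 fold change of 0.358, and the 3272 with the longest had -0.351. The 3274 genes lowest in GC content had a median of -0.314, and the 3274 highest had 0.259. With siBRDT replicate 2 alone the length medians were 0.372 and -0.363. Lists made of short or long transcripts are therefore also given after each library's trend on length and GC content had been removed, which left 1422 genes (10.9%) higher and 1801 (13.8%) lower of 13094. Named genes whose call was lost with the trend removed are given as such below.

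**Figure D1:**
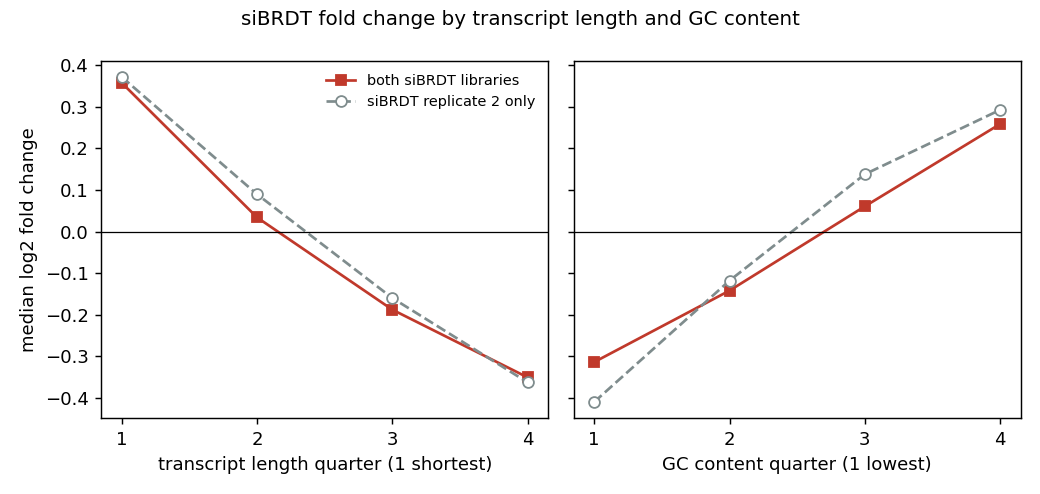
Median log2 fold change (siBRDT against siCont in TE6) of the tested genes in 4 bins of equal size by transcript length (left) and GC content (right), for both siBRDT libraries (squares) and siBRDT replicate 2 alone (circles). The medians fell from 0.358 in the shortest to -0.351 in the longest bin and rose from -0.314 to 0.259 with GC content, and replicate 2 alone ran close to both.

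**Figure D2:**
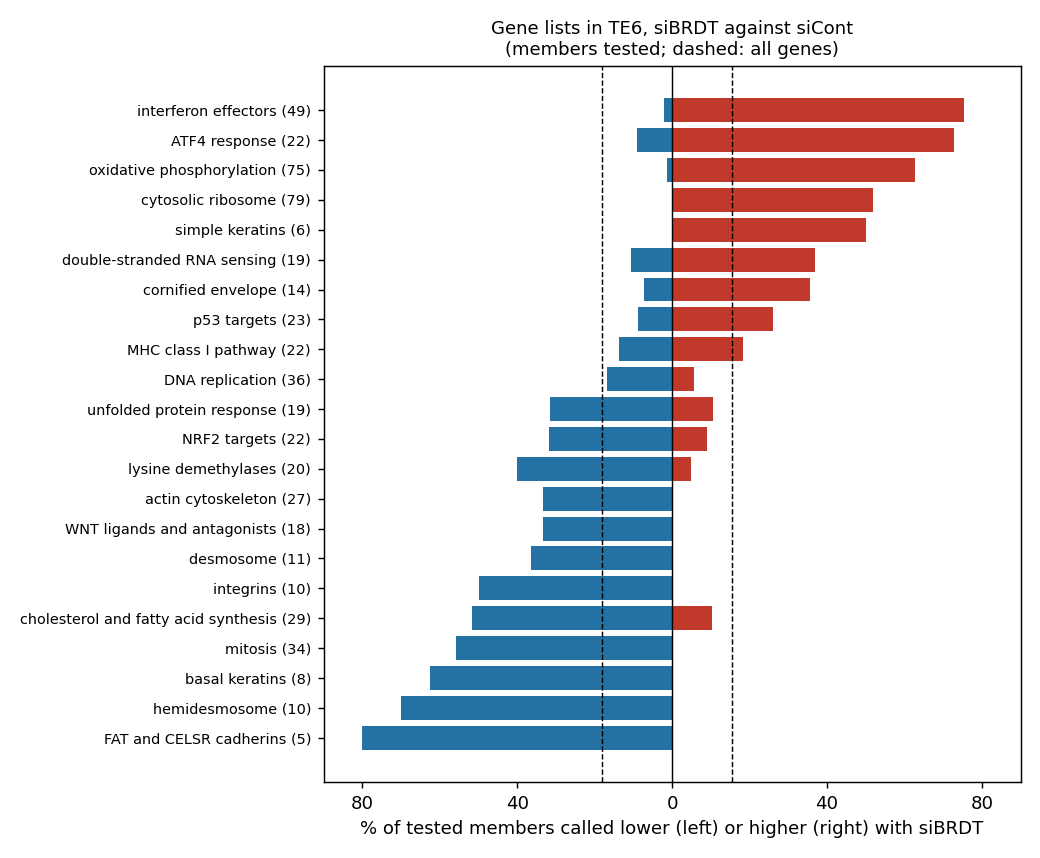
Share of the tested members of 22 gene lists called higher (right) or lower (left) in siBRDT cells, with the number of tested members in brackets and the shares over all genes, 15.6% higher and 18.1% lower, as dashed lines. Interferon effectors, at 37 of 49 higher, and FAT and CELSR cadherins, at 4 of 5 lower, stand at the ends.

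Interferon-induced effector genes rose together. Of 55 genes listed, 49 were tested, 37 of them were called higher (75.5%, against 15.6% of all genes) and 1 lower, GBP2. Their median log2 fold change was 1.07, beside -0.04 over all genes, and in 40 of the 49 both siBRDT values were above both siCont values (34.5% of all genes). Without siBRDT replicate 1 the count was 35, and over all alternatives 31 to 38 members were called higher. The 6 untested members had at most 18 reads in any TE6 library. The rise was not particular to siBRDT. In siTP63 cells, measured against the same siCont libraries, 35 of the 49 were called higher and 2 lower, with a median of 1. The shares over all genes in that comparison were 18.3% higher and 20.6% lower.

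ISG15, a ubiquitin-like modifier that is attached to proteins during antiviral responses, had the largest rise among the genes named here. It was measured at 487.9 and 340.2 in siCont and at 10670 and 7269 in siBRDT cells. The log2 fold change was 4.43 ± 0.18, with limma adjusted p = 1.5e-08. IFI6, an interferon-induced membrane protein, went from 501.1 and 380.7 to 6742 and 4628 (3.67 ± 0.17, limma adjusted p = 4.6e-08). In both genes the replicates of a group lay much closer to each other than the groups did. With siTP63 the log2 fold changes of ISG15 and IFI6 were 2.95 and 3.90.

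The IFIT proteins bind viral RNA and hold back its translation. IFIT3 was at 182 and 188.6 in siCont and at 1578 and 1945 in siBRDT cells (3.23 ± 0.14). IFIT1 was at 357.8 and 355.7 against 2819 and 3195 (3.07 ± 0.12), and IFIT2 at 280.4 and 300.6 against 1518 and 1733 (2.48 ± 0.16). All 3 stood clear of their controls, with limma adjusted p-values of 8.1e-07 or lower. With siTP63, IFIT3 and IFIT1 rose by 1.74 and 1.51, and IFIT2, at -0.48, was not called. They share a locus on chromosome 10 in which LIPA overlaps each of them on the opposite strand, and the library kit does not mark strand, so reads of LIPA cannot be told apart there. RARRES3, a phospholipase with antiproliferative activity, had few reads in siCont, with values of 24.61 and 12.92, and rose to 275.1 and 238.9 (3.77 ± 0.26). Not every effector moved in this direction: IFI16, a sensor of DNA, had 2082 and 2274 in siCont and 1506 and 1627 in siBRDT cells, a log2 fold change of -0.47 that missed the size limit. UBE2L6, which conjugates ISG15 to its targets, had a log2 fold change of 0.36 and was not called.

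**Figure D3:**
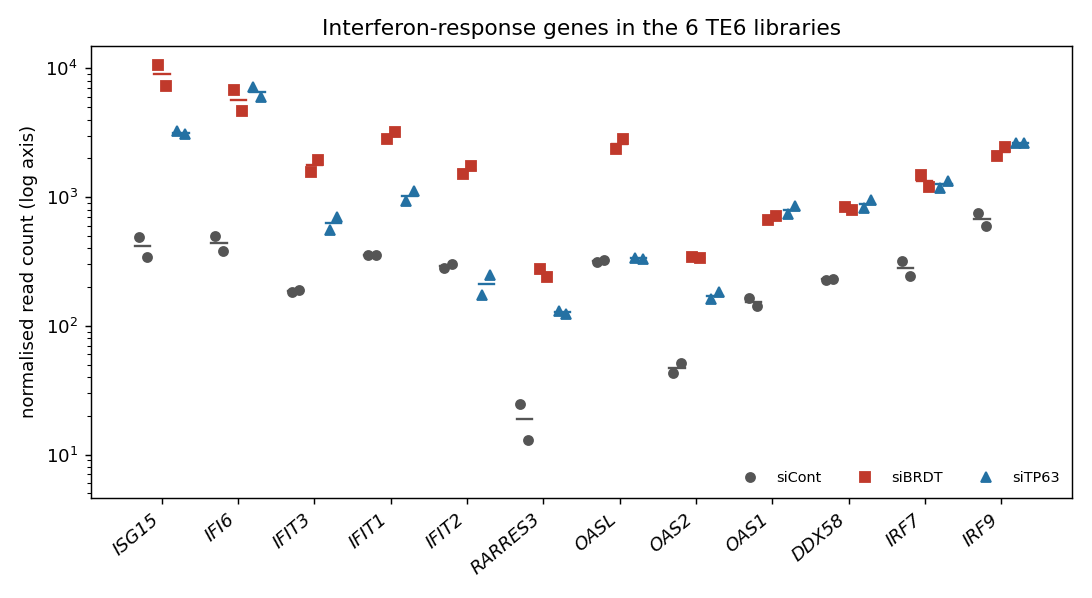
Normalised read counts (log axis) of 12 interferon-response genes in the 6 TE6 libraries, 2 points per group, with the group mean as a short line. For each gene both siBRDT points lie above both siCont points, from ISG15 at 7269 and 10670 down to RARRES3 at 238.9 and 275.1.

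The promoters of the 4 called effectors with the largest rise, among those that have an entry in the promoter table and hold the motif searched, are shown because these genes moved together. Each runs from 250 bases before to 50 bases after the gene start (RefSeq, GRCh38.p14). Capitals mark each match on either strand to GAAA, any 2 bases and GAAA again, the core of the element bound by STAT and IRF complexes, where overlapping matches run together.
ISG15, chr1:1013247-1013546, plus strand: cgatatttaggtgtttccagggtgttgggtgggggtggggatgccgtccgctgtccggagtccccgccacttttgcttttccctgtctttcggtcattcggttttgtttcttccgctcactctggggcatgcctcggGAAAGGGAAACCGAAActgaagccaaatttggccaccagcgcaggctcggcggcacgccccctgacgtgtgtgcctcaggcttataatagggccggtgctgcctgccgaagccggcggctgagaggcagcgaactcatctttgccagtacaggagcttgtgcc
IFI6, chr1:27672143-27672442, minus strand: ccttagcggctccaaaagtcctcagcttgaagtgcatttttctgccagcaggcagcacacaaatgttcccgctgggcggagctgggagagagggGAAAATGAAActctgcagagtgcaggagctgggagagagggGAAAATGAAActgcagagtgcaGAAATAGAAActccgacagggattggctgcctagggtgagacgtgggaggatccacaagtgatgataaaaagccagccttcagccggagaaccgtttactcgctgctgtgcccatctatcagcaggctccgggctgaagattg
IFIT3, chr10:89327747-89328046, plus strand: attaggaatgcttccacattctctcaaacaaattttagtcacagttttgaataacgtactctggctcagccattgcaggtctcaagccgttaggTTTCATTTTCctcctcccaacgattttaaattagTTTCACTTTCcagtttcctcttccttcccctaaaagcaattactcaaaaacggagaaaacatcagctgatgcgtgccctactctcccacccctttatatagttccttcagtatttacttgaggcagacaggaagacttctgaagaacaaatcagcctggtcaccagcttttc
IFIT1, chr10:89392373-89392672, plus strand: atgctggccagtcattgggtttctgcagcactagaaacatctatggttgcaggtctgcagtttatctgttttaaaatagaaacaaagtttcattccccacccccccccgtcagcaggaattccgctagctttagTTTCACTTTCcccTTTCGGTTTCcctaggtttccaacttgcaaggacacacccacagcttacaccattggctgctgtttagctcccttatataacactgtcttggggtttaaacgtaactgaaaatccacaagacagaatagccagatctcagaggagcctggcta
ISG15, IFIT3 and IFIT1 held 2 matches each and IFI6 held 3. The motif occurred in 21 of the 29 called effectors with an entry (72.4%) and in 5 of the 8 effectors with an entry that were tested and not called higher (62.5%). It occurred in 2.7% of the promoters of all tested genes with an entry and in 3.57% of all 35116 promoters. A match is a description of the letters in these windows, and the motif was frequent in effectors that were called and in those that were not.

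Sensors of double-stranded RNA rose in part. Of 19 tested genes for sensors, OAS enzymes and adaptors, 7 were called higher and 2, TLR3 and TBK1, lower, and 1 was lower without siBRDT replicate 1. The OAS enzymes make the oligoadenylates that activate RNase L, and OASL is their relative without this activity. OASL was measured at 310.3 and 326.5 in siCont and at 2343 and 2801 in siBRDT cells (3.01 ± 0.12). OAS2 went from 43.08 and 51.68 to 339.9 and 338.1 (2.82 ± 0.17), and OAS1 from 164.4 and 141.3 to 659.2 and 707.2 (2.16 ± 0.13). The cytosolic RNA sensors DDX58 (RIG-I) and IFIH1 (MDA5) rose by 1.83 and 1.59 on the log2 scale. All 5 had limma adjusted p-values of 4.5e-06 or lower and no overlap between groups. The RNA-editing enzyme ADAR, at 2896 and 2890 against 3281 and 3690, had a log2 fold change of 0.27 and was not called. In siTP63 cells 6 of the 19 genes were called higher and 2 lower, beside 18.3% and 20.6% of all genes. OAS1 and OAS2 rose there by 2.38 and 1.84, and OASL, at 0.07, was not called.

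Genes of interferon signalling moved both ways, with 6 of 22 called higher (27.3%) and 5 lower (22.7%), beside 15.6% and 18.1% of all genes. Their median log2 fold change was -0.20. IRF7 and IRF9, which act in the induction of interferon genes and their targets, rose: IRF7 went from 320 and 243.8 to 1471 and 1207 (2.25 ± 0.15), and IRF9 from 747.2 and 596.9 to 2075 and 2436 (1.75 ± 0.12). IRF1 rose by 1.16. IFNGR1, the ligand-binding chain of the receptor for interferon gamma, fell from 480.9 and 504.8 to 207.2 and 219.8 (-1.20 ± 0.13), and IRF2, which acts against IRF1, fell by 1.20. These 5 genes were called in each alternative computed. In siTP63 cells 6 of the 22 genes were called higher and 4 lower, beside 18.3% and 20.6% of all genes. IRF7 and IRF9 rose there by 2.16 and 1.98.

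The interferon genes themselves were near the limit of detection. Of 22 genes in the table, 10 had no read in any TE6 library and none reached the minimum mean of 10, so none was tested. IFNL1, a type III interferon, had 2 and 3 reads in siCont, 17 and 10 in siBRDT and 8 and 1 in siTP63 libraries. IFNB1 had no read in siCont and 2 in each siBRDT library, and IFNL3 had 1 and 0 against 2 and 4. Taken over the type III genes, the libraries held 3 and 3 reads in siCont and 28 and 14 in siBRDT cells, and over the type I genes 1 and 0 against 9 and 2. Only IFNB1, IFNL1 and IFNL3 had a read in siBRDT replicate 2, and the reads of the other interferon genes in siBRDT cells all lay in replicate 1, the library with reads in many silent genes.

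Antigen presentation by MHC class I, also a target of interferon, showed counts close to the background, with 4 of 22 genes called higher (18.2%) and 3 lower (13.6%). PSMB10, a subunit of the immunoproteasome, rose by 0.85, and its activators PSME2 and PSME1 rose by 0.76 and 0.75. CANX, a chaperone of the heavy chain, fell from 10840 and 11960 to 6054 and 5414 (-0.99 ± 0.09), and ERAP1, which trims peptides, fell by 0.62. Of the 20 tested NF-kB linked genes 4 were called higher (20%), CCL5, IL6, ICAM1 and CXCL2, and 2 lower (10%), NFKB1 and TNFAIP2. These shares stood beside 15.6% and 18.1% of all genes, and 2 genes were higher with the trend removed. CCL5, a chemokine for leukocytes, went from 18.46 and 16.37 to 124.1 and 118.3 (2.73 ± 0.28), and IL6, a cytokine of inflammation, from 4.395 and 4.307 to 29.13 and 25.09 (2.39 ± 0.47), at low read counts in siCont. NFKB1, the gene of a subunit of the factor, went from 532.7 and 477.2 to 174.8 and 217.4 (-1.37 ± 0.14). TNFAIP2, an NF-kB target, fell by 1.12. With the length and GC trend removed, PSMB10, PSME1 and ERAP1 were no longer called, with 3 genes of the list higher and 1 lower, and ERAP1 was also not called without siCont replicate 2.

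Genes of the ATF4 response to amino acid shortage formed a further group that rose, with 16 of 22 called higher (72.7%), 2 lower (MTHFD2 and VLDLR) and a median log2 fold change of 0.72. ATF4, the factor itself, went from 3399 and 3197 to 7306 and 8336 (1.243 ± 0.09). CHAC1, which breaks down glutathione, went from 81.76 and 61.16 to 445.6 and 563.8 (2.81 ± 0.17), and NUPR1, a stress-induced chromatin protein, from 343.7 and 257.5 to 1617 and 1512 (2.39 ± 0.14). ASNS, which makes asparagine, and PHGDH, the first enzyme of serine synthesis, rose by 1.63 and 1.49. The amino acid transporter SLC7A5, at 3615 and 3522 against 3615 and 4784, was not called. With the trend on length and GC removed 13 members were called higher. In siTP63 cells 10 of the 22 were called higher and 3 lower, beside 18.3% and 20.6% of all genes. ATF4, CHAC1, NUPR1, PHGDH and ASNS had log2 fold changes of 1.739, 2.625, 1.996, 1.431 and 0.887 there.

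The unfolded protein response, which raises chaperones of the endoplasmic reticulum, did not move with the ATF4 genes in siBRDT cells: 2 of 19 genes were called higher and 6 lower. PDIA4, a disulfide isomerase, fell from 6542 and 6135 to 1064 and 1467 (-2.34 ± 0.13), and HYOU1, a chaperone, from 4023 and 3788 to 1580 and 2354 (-1.02 ± 0.15). PDIA6 and the sensor ATF6 fell by 0.79 and 0.62, whereas SDF2L1 rose by 0.88, and neither ATF6 nor SDF2L1 was called with the trend removed. TXNDC5, a further disulfide isomerase, fell from 219.8 and 311.8 to 36.68 and 56.14 (-2.50 ± 0.25). With the trend removed 3 genes were called lower and none higher.

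Ribosomal protein genes and subunits of the respiratory chain, whose transcripts are short, were higher by small steps. Of 79 cytoplasmic ribosomal protein genes 41 were called higher and none lower, with a median log2 fold change of 0.52. With the length and GC trend removed 17 were called higher. RPL28 went from 14770 and 13780 to 31660 and 25970 (1.01 ± 0.10), whereas RPL19, at 143100 and 132600 against 176800 and 191400, had a log2 fold change of 0.42 and was not called. RPLP1 rose by 0.91, RPLP2 by 0.92, RPS29 by 0.90 and RPS28 by 1.02, of which RPLP2 and RPS28 were lost with the trend removed. Of 75 respiratory chain subunits 47 were called higher and 1 lower (median 0.56), and 27 higher with the trend removed. NDUFB7, a subunit of complex I, went from 1600 and 1406 to 4324 and 3538 (1.38 ± 0.11), and NDUFS6, NDUFS8, COX5B and ATP5D rose by 1.04 to 1.17. In siTP63 cells 25 of the 79 ribosomal protein genes were called higher and 1 lower, beside 18.3% and 20.6% of all genes. Of the 75 respiratory chain subunits 26 were called higher there and 2 lower. These siTP63 counts were not made with the length and GC trend removed.

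Genes of the basal squamous state mostly fell. TP63 went from 2596 and 2785 in siCont to 1282 and 1147 in siBRDT cells (-1.15 ± 0.12, limma adjusted p = 2e-05). With siTP63 it was at 133.4 and 112.5. Of 8 basal and stress keratins 5 were called lower and none higher, with a median log2 fold change of -0.73. KRT14 went from 3320 and 3110 to 1189 and 1134 (-1.47 ± 0.12), and its partner KRT5 from 15990 and 15150 to 4620 and 6657 (-1.49 ± 0.14). KRT6A, a keratin of stressed and proliferating epithelium, went from 33630 and 33520 to 11400 and 16080 (-1.31 ± 0.13). KRT15 fell by 0.58, and lost its call without siBRDT replicate 1. KRT17, at 22870 and 20460 against 25650 and 25020, was not called, with a log2 fold change of 0.23 that turned to -0.20 with the length and GC trend removed. SFN, a further squamous marker, went the other way. It was called higher, from 3566 and 3066 to 6367 and 5451 (0.83 ± 0.11). FAT2, a large protocadherin, fell from 1145 and 1085 to 270.8 and 317.8 (-1.92 ± 0.16). PTHLH, which encodes parathyroid hormone-related protein, fell from 935.4 and 980.2 to 308.6 and 314.2 (-1.62 ± 0.12). TP63, FAT2 and PTHLH are each overlapped by an antisense gene, whose reads cannot be told apart. The siTP63 libraries, which share the siCont libraries, gave log2 fold changes of -5.26 for KRT14, -3.32 for KRT5, -2.67 for KRT6A, -5.30 for FAT2 and -1.47 for PTHLH.

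Genes that attach basal cells to the basement membrane fell. Of 10 genes of hemidesmosomes and their laminin 7 were called lower and none higher (median -0.84). DST, the plakin that links keratin to the hemidesmosome, went from 3108 and 3459 to 1259 and 1208 (-1.41 ± 0.10). ITGA6 fell by 0.96, ITGA3 by 0.93 and LAMA3 by 0.84 on the log2 scale. The plakin PLEC (3366 and 3058 against 2738 and 2707) and the tetraspanin CD151 (2061 and 2115 against 2781 and 2818) were not called. Among 10 integrins outside this complex 5 were called lower and none higher. ITGB1, the common beta chain of many matrix receptors, went from 2682 and 3053 to 475.8 and 930.6 (-2.10 ± 0.22), where the siBRDT replicates differed from each other but not enough to reach siCont. ITGA2, a receptor for collagen, fell by 1.48, and COL4A1, a collagen of the basement membrane, from 1836 and 1749 to 448.8 and 586.5 (-1.80 ± 0.14). ITGA5 and ITGB5 fell by 0.91 and 0.73. Scaled to upper quartiles of the genes above 0, the counts of lower genes were 4 of 10 for hemidesmosomes, 3 of 10 for integrins and 3 of 8 for basal keratins. Under that scaling 4.4% of all genes were called lower.

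Of 11 desmosome genes, which join neighbouring cells, 4 were called lower (36.4%), none higher and 7 neither: DSG2, a desmosomal cadherin, went from 4647 and 5526 to 2124 and 1976 (-1.31 ± 0.12), and DSC3, DSP and PKP2 fell by 0.95, 0.93 and 0.66, of which PKP2 was not called without siCont replicate 2. PERP, at 4158 and 4495 against 4412 and 3316, was not called. Of the 5 FAT and CELSR cadherins FAT2, FAT1, CELSR1 and CELSR2 were lower, with FAT1 going from 1150 and 1234 to 415.4 and 505.3 (-1.38 ± 0.13). In the actin cytoskeleton 9 of 27 genes were called lower and none higher. TPM4, a tropomyosin, went from 2199 and 2239 to 353.9 and 485 (-2.42 ± 0.14), and VCL, ACTN1 and FLNA, which tie actin to adhesions and to itself, fell by 1.21, 0.97 and 0.86. With the length and GC trend removed 7 hemidesmosome, 4 desmosome and 12 actin genes were called lower, beside 13.8% of all genes. Scaled to upper quartiles of the genes above 0, 2 of the FAT and CELSR cadherins and 5 actin genes were called lower, beside 4.4% of all genes.

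**Figure D4:**
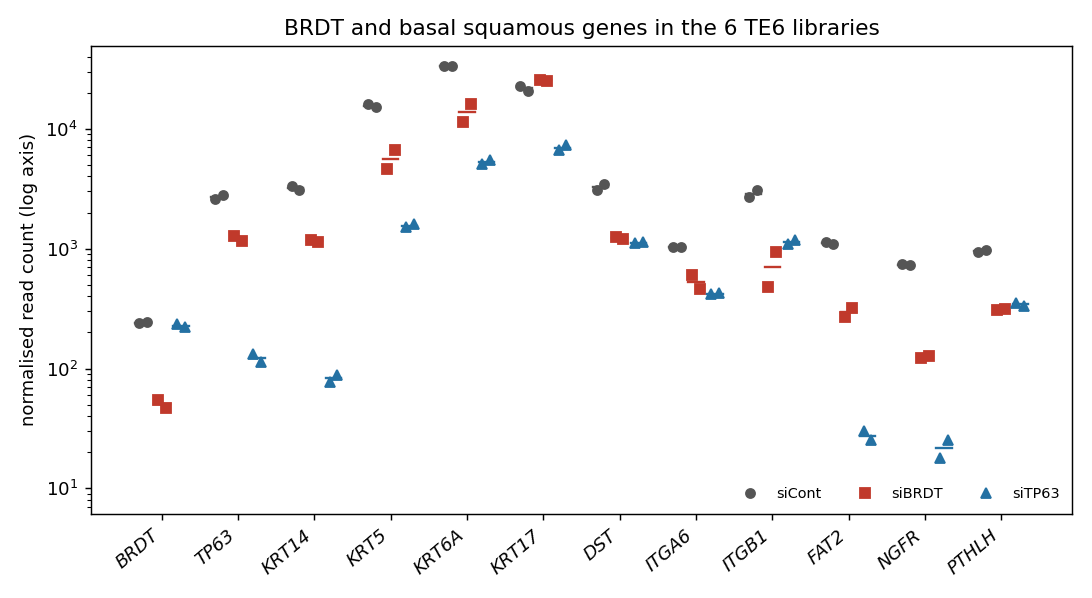
Normalised read counts (log axis) of BRDT and 11 genes of the basal squamous state in the 6 TE6 libraries, 2 points per group, with the group mean as a short line. The siBRDT points lie below the siCont points for all but KRT17, and in siTP63 cells KRT14, FAT2 and NGFR are lower still.

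Markers of other epithelial states moved less uniformly. Of 6 simple epithelial keratins 3 were called higher: KRT7 (58.9 and 56.85 against 147.8 and 152.9, a log2 fold change of 1.36 ± 0.18), KRT18 (0.73) and KRT8 (0.64). KRT8 and KRT18 were not called with the trend removed, and as neighbours on opposite strands they overlap at their ends. Of 14 tested genes of the cornified envelope and of suprabasal cells 5 were called higher and 1 lower, and 3 were lower with the trend removed. KRT4, a keratin of the differentiated layers of the esophagus, went from 283.1 and 231.7 to 601 and 872 (1.495 ± 0.16), and CSTA, an envelope precursor, rose by 1.03. FLG, the precursor of filaggrin, fell from 219.8 and 233.4 to 133.8 and 80.04 (-1.12 ± 0.21). Of 25 transcription factors of the squamous lineage 6 were called higher and 6 lower, and with the trend removed 2 were higher and 6 lower. Those lower were FOXE1, SOX2, EHF, GRHL1, GRHL2 and GRHL3. KLF4, a factor of differentiation, rose from 115.2 and 101.6 to 298.9 and 307 (1.48 ± 0.16).

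NGFR, the p75 receptor for neurotrophins and a marker of basal stem cells of the esophagus, had the second largest fall of the genes named here. It lies at chr17:49495293-49515008 on the plus strand and overlaps an antisense gene. It was measured at 737.6 and 734.7 in siCont and at 123 and 127.8 in siBRDT cells (-2.54 ± 0.19, limma adjusted p = 1.7e-06). The replicates of each group lay close together and the groups far apart. Among 10 tested neurotrophin genes its co-receptor SORT1 (962.6 and 936.3 against 432.7 and 505.3) and the receptor NTRK2 (1474 and 1544 against 711 and 870.8) fell by 1.02 and 0.94, and none was called higher.

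Of 15 genes of the EGF receptor family 5 were called lower (33.3%, against 18.1% of all genes) and none higher. With the trend removed 3 were lower and 1 higher. EGFR went from 718.2 and 745.1 to 373.3 and 384.7 (-0.95 ± 0.13), its ligand EGF from 404.4 and 397.9 to 160.8 and 164.9 (-1.30 ± 0.13), and LRIG1, which promotes breakdown of the receptor, from 1131 and 1090 to 404.6 and 541.1 (-1.25 ± 0.14). The other 10 genes of the list, further receptors and ligands among them, were not called. Of 18 tested WNT ligands and secreted antagonists 6 were called lower and none higher, the antagonists SOST, SOSTDC1 and DKK3 and the ligands WNT6, WNT9A and WNT5A. The antagonists DKK1, SFRP1, SFRP5 and NOTUM were not called. SOST, sclerostin, went from 540.6 and 462.5 to 76.6 and 100.3 (-2.50 ± 0.26), SOSTDC1 from 509 and 525.4 to 147.8 and 172 (-1.69 ± 0.14) and DKK3 from 4421 and 4486 to 2031 and 2748 (-0.91 ± 0.13). The ligand WNT5A fell by 0.78 and was not called with the trend removed. NOTCH3 fell from 1907 and 1694 to 666.8 and 760.9 (-1.33 ± 0.12), in a Notch list with 4 of 18 called higher and 6 lower, and 1 higher with the trend removed.

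Genes of mitosis fell and genes of DNA replication mostly did not. Of 34 mitosis and spindle genes 19 were called lower (55.9%) and none higher, with a median of -0.64. HMMR, a spindle protein, went from 507.2 and 646 to 153.2 and 120.7 (-2.07 ± 0.17), TOP2A, which untangles DNA, from 6206 and 6949 to 2566 and 2616 (-1.34 ± 0.10), and NUF2, of the kinetochore, from 865.9 and 1000 to 375.5 and 344 (-1.37 ± 0.13). KIF20A, a kinesin of cytokinesis, fell by 1.32 and the cyclin CCNA2 by 1.20. UBE2C, at 3444 and 3440 against 3865 and 4101, was not called. With upper quartile scaling over genes above 0, 10 mitosis genes were called lower and 2 higher, beside 4.4% and 20.3% of all genes. Of 36 replication genes 2 were called higher and 6 lower, and 4 were higher without siBRDT replicate 1. The factor E2F1 rose from 716.5 and 670.1 to 1178 and 1215 (0.79 ± 0.11), and was at 0.47 and not called with the trend removed. In siTP63 cells 34 mitosis and 23 replication genes were called lower, beside 20.6% of all genes in that comparison.

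Metabolic lists differed in their counts. Of 29 genes of cholesterol and fatty acid synthesis 15 were called lower and 3 higher, with a median of -0.59. SCD, which desaturates fatty acids, went from 13700 and 13400 to 4530 and 5423 (-1.45 ± 0.10). MSMO1 and PMVK, both enzymes of cholesterol synthesis, moved in opposite directions, as MSMO1 fell by 1.14 and PMVK rose by 1.17. With upper quartile scaling over genes above 0, 7 were called lower and 5 higher, beside 4.4% and 20.3% of all genes. Of 22 NRF2 targets, which protect against oxidants, 7 were called lower and 2 higher, and 4 were lower without siBRDT replicate 1. GCLC, the catalytic subunit of glutathione synthesis, went from 10070 and 10380 to 4698 and 4296 (-1.19 ± 0.09), TXNRD1 fell by 1.11 and AKR1B10 by 0.72, whereas OSGIN1 rose by 0.78 and was at 0.36 and not called with the trend removed. HIF1A, the oxygen-regulated factor, went from 4726 and 5178 to 636.6 and 1443 (-2.37 ± 0.25), with siBRDT replicates that differed by more than a factor of 2. Of 32 genes of glycolysis and the hypoxia response 8 were called lower (25%) and 1 higher, and without siBRDT replicate 1 there were 6 lower, beside 19.5% of all genes, and 2 higher. Those lower included STC1, which went from 513.4 and 572.8 to 124.1 and 135 (-2.06 ± 0.16), and NDRG1, which fell by 1.15.

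Lists of chromatin, p53-target and germ-cell genes are set beside the shares over all genes, 15.6% higher and 18.1% lower. Of 20 lysine demethylases 8 were called lower (40%) and 1 higher (5%). Without siBRDT replicate 1 or with the trend removed 5 were lower, beside 19.5% and 13.8% of all genes. KDM1B, which acts on histone H3, went from 138 and 205 to 50.71 and 33.45 (-2.003 ± 0.25), and PHF2 fell by 1.15. Of 26 tested histone genes 4 were called higher (15.4%) and 3 lower (11.5%), neither above the share over all genes. Among them HIST1H1C rose by 0.70 and lost its call with the trend removed, and HIST1H2BH fell by 1.17. With the trend removed none was called higher and 7 lower, and without siBRDT replicate 1 there were 2 higher and 4 lower. Of 23 p53 targets 6 were called higher (26.1%) and 2 lower (8.7%). GDF15, a stress cytokine, was at 109 and 91.3 against 338.8 and 375.1 (1.83 ± 0.16). PMAIP1, which promotes apoptosis, rose by 1.31 and BAX by 0.87. With the trend removed 3 of the p53 targets were called higher, beside 10.9% of all genes, and BAX, at 0.33, was not. Of 40 germ-cell genes only 8 were expressed enough to be tested, and 2 were called higher and 1 lower, or 2 lower without siBRDT replicate 1. GAGE1, a cancer-testis gene, went from 408.8 and 390.2 to 711 and 593.7 (0.70 ± 0.13).

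Outside these lists the largest changes included CTXN1, at 46.59 and 33.59 against 348.5 and 264 (2.91 ± 0.21), S100P, a calcium-binding protein, at 31.65 and 42.21 against 243.8 and 234.1 (2.68 ± 0.20), and RMRP, the RNA of an RNA-processing enzyme, at 31.65 and 35.32 against 276.2 and 142.2 (2.53 ± 0.28). Those that fell included ACOT7, an acyl-CoA thioesterase, from 1007 and 971.6 to 192 and 205.5 (-2.31 ± 0.11), HACD2, an enzyme of fatty acid elongation, from 227.7 and 307.5 to 41 and 62.12 (-2.37 ± 0.23), and PELI1, a ubiquitin ligase of innate immune signalling, from 190.8 and 192.9 to 36.68 and 50.17 (-2.14 ± 0.21). PI15, a secreted peptidase inhibitor, had the lowest log2 fold change of those named, -3.17 ± 0.47. Its siBRDT values, 105.7 and 28.67, differed from each other by more than a factor of 3, and both lay below the 467.7 and 549.5 of siCont.

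The fold changes of TE6 and KYSE180 were compared gene by gene as a limma contrast, since the 2 lines were measured in separately normalised tables. The siRNA used in TE6 is not given, so effects of line, siRNA and table cannot be told apart. Of 12612 genes tested in both, 2445 (19.4%) had a higher and 2835 (22.5%) a lower log2 fold change in TE6, at an adjusted p under 0.05 with no limit on size. BRDT was measured at 1017, 1043 and 1136 in KYSE180 siCont and at 132, 147 and 198.5 in siBRDT cells, a log2 fold change of -2.76, and its change in TE6 was smaller by 0.52 ± 0.20 (limma adjusted p = 0.047).

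Interferon effectors differed between the lines. Of the 49 effectors 39 had a higher fold change in TE6 and 1 a lower one. In KYSE180, 5 of the 49 were called higher and 8 lower, beside 14.5% and 15.8% of all genes there. ISG15 was measured at 1268, 1238 and 1089 in KYSE180 siCont and at 1286, 1216 and 964.5 in siBRDT cells, and the difference between the lines was 4.49 on the log2 scale (limma adjusted p = 2e-10). For IFI6 and OASL the differences were 3.77 and 2.94. NUPR1 and CHAC1, of the ATF4 response, differed by 2.40 and 2.54, and 14 of the 22 ATF4 genes had a higher fold change in TE6. In KYSE180 itself 8 of the 22 were called higher and 2 lower. ATF4 and ASNS were among those higher, at 0.77 and 0.85. Of 79 ribosomal protein genes 74 had a higher fold change in TE6, for example RPL28 with a log2 fold change of -0.28 in KYSE180 and a difference of 1.29. In KYSE180 17 of the 79 were called lower and none higher. The list counts between the lines were not made with the length and GC trend removed.

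Among squamous genes the lines differed for some and not for others. PTHLH (-1.71 in KYSE180, a difference of 0.10, limma adjusted p = 0.53), FAT2 (-1.71, -0.21, 0.35) and KRT14 (-1.14, -0.32, 0.056) fell in both lines, with no difference that passed the threshold. TP63 fell more in TE6, with -0.58 in KYSE180 and a difference of -0.57 (limma adjusted p = 0.0031). Of the 8 basal and stress keratins 2 had a higher and 2 a lower fold change in TE6. The differences were 0.78 for KRT17 and 1.06 for KRT16, and -0.72 for KRT6A and -0.46 for KRT5. NGFR was measured at 144.6, 150.5 and 136.3 in KYSE180 siCont and at 89.41, 90.31 and 96.63 in siBRDT cells, a log2 fold change of -0.64, and the difference was -1.91 (limma adjusted p = 3.2e-06). A few genes moved in opposite directions. ADH7, an alcohol dehydrogenase of the upper digestive tract, fell by 1.13 in TE6 and rose from 1486, 1340 and 1298 to 2690, 2562 and 2680 in KYSE180, a difference of -2.07. ITPR1, a calcium channel of the endoplasmic reticulum, fell by 0.99 in TE6 and rose by 1.37 in KYSE180, a difference of -2.36, where the fall in TE6 was not called with upper quartile scaling over genes above 0 or without siCont replicate 2. HACD2 and TBC1D14, a regulator of autophagy, fell in TE6 and were not called in KYSE180, with differences of -2.28 and -2.02. HABP4, an RNA-binding protein, fell from 230.3, 231.3 and 208.9 to 63.87, 43.99 and 44.4 in KYSE180, and had a log2 fold change of 0.50 in TE6 that did not reach the size limit, a difference of 2.64.

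**Figure D5:**
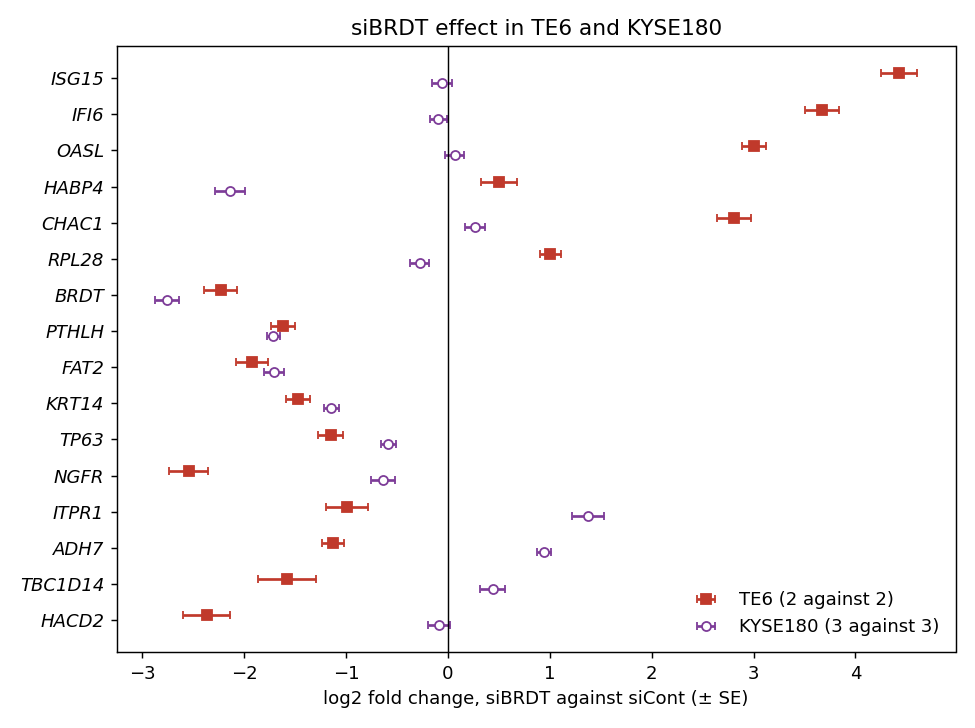
Log2 fold change (siBRDT against siCont, ± SE) of 16 genes in TE6 (squares, 2 against 2 libraries) and KYSE180 (circles, 3 against 3). ISG15, IFI6 and OASL stand near 0 in KYSE180 and at 3 or more in TE6, PTHLH, FAT2 and KRT14 lie close together, and ADH7 and ITPR1 lie on opposite sides of 0.

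Markers of other cell types were low. Of 57 markers for fibroblasts, endothelium, immune cells, neural cells, liver and muscle, 12 reached the minimum mean, and the others had at most 19 reads in any TE6 library. The immune markers PTPRC, CD3E and CD2 had no read in siCont or in siBRDT replicate 2. Some other immune markers had a few reads there, such as CD79A, with 1 in each siCont library and 2 in siBRDT replicate 2. The summed level was 405 to 423 in siCont and 252 to 279 in siBRDT cells for the immune list, and 450 to 546 against 797 to 997 for the endothelial list. Those sums rest mainly on CD68, a lysosomal protein that fell by 0.80, and on EGFL7, which rose from 468.6 and 385 to 888 and 729.9. CD68 was not called without siCont replicate 2, and EGFL7 was not called with the trend removed. Their part in the results was not tested.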

How the data were processed

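RNA from the TE6 and KYSE180 cells was isolated with QIAzol, and libraries were made with a TruSeq RNA kit by the authors. Per the labels, reads were mapped to hg38 with STAR (version 2.6.0), counted per gene with HTSeq (0.11.2) and normalised with DESeq2 (1.24.0). The annotation and the strand setting are not given in the sources used here. As deposited, each value is a normalised signal: the read count of a gene over the size factor of its library. Of these values, 100% were whole multiples of 1 read (tolerance 0.01), so that reads could be recovered.

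Log2(value + 1) of the 6 TE6 libraries was fitted with limma (version 3.58.1, R 4.3.3; lmFit, eBayes with trend = TRUE), for genes with a mean of at least 10. P-values were adjusted by Benjamini-Hochberg over 13333 genes, with calls at 0.05 and a minimum size of 0.5 for the log2 fold change. The added 1 makes the change of low genes appear smaller. Differences between the lines were limma contrasts over 12 libraries. Alternatives used edgeR (4.0.16) and DESeq2 (1.42.0) on recovered reads, a pseudocount of 0.1, no filter, no fold-change limit, the siCont and siBRDT groups alone, other scalings, the replicate number as a block, removal of length and GC trends (splines with 4 degrees of freedom), and leaving out each library. Scaling to the upper quartile of tested genes was added after the data were seen. Fits, read recovery and trend removal were tested on simulated data.

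The comparison, the gene lists and the tests were chosen with earlier results of these data known. Named genes are the 9 genes BRDT, ISG15, NGFR, TP63, FAT2, KRT14, PTHLH, BRD2 and BRD3, the 12 that rose most and the 12 that fell most among called genes (mean of at least 100, groups not overlapping), per list up to 5 called members and 2 members of the highest level not called, and the genes with the largest differences between the lines, 4 each way (mean of at least 100 in both tables). Genes outside this rule (GBP2, CCL5, IL6, ICAM1, CXCL2, KRT16, FOXE1, SOX2, EHF, the GRHL genes, further WNT genes, TLR3, TBK1, MTHFD2, VLDLR, SFN, the interferon genes and leukocyte markers) were named after their values were seen. Some genes that meet the rule are not reported here. Of 26485 symbols 24589 (92.8%) matched GENCODE 44, which gave positions, lengths and GC content. The reads carry no molecular identifiers, so floors cover counting error only. Promoters are from RefSeq. Figures were drawn with matplotlib 3.10.9.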

Additional observations from a re-analysis of the deposited data

Results flagged for a closer look

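The response to siBRDT differed between TE6 and KYSE180 for many genes, which is why these results are listed here. Line, siRNA and table cannot be told apart in this contrast. The difference of the log2 fold changes, tested as a limma contrast, passed an adjusted p of 0.05 upward for 2445 genes and downward for 2835 genes of 12612. Among genes with a mean of at least 100 in both tables, the largest differences upward were ISG15 (4.49), IFI6 (3.77), OASL (2.94) and HABP4 (2.64), as TE6 minus KYSE180. Those downward were ITPR1 (-2.36), HACD2 (-2.28), ADH7 (-2.07) and TBC1D14 (-2.02), and NGFR differed by -1.91. For ISG15, IFI6 and OASL the difference came from TE6, where they rose, beside KYSE180 log2 fold changes of -0.06, -0.09 and 0.07. For HABP4 it came from KYSE180, where the log2 fold change was -2.14.

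The second item concerns genes that were not tested, in one of the libraries compared. In siBRDT replicate 1 reads were present in 2674 genes that had none in the other 5 TE6 libraries, including siCont, where 107 and 110 genes had reads in that library alone. Counted as genes without a read in both siCont libraries and in at least 1 siTP63 library, siBRDT replicate 1 held reads in 3538 and siBRDT replicate 2 in 547.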

How the results depend on the processing

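BRDT kept its direction and call in all 14 alternatives, with log2 fold changes from -2.35 to -1.96. The 2419 genes called lower became 586 with upper quartile scaling over genes above 0, and 1484 (without siCont replicate 2) to 2707 when 1 library was left out. The 2074 genes called higher stayed between 1422 and 2925, with 1502 to 2244 when 1 library was left out. The 2835 genes with a lower fold change in TE6 than in KYSE180 became 709 with the same scaling and 2000 to 3246 without 1 library. The 2445 with a higher one stayed between 1839 and 2625, and between 1839 and 2586 without 1 library. The cause of these shifts was not tested. A library left alone in its group was assumed to vary like the others.

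Of 128 named genes called besides BRDT, 97 were called in all alternatives and none reversed, 18 were lost with the upper quartile scaling, 17 with the trend on length and GC removed, 5 without siCont replicate 2 and 1 without siBRDT replicate 1. The 18 were KRT15, ERAP1, ATF6, PKP2, AKR1B10, ITGB5, WNT5A, PDIA6, CELSR1, CELSR2, CD68, CCNT1, LAMA3, ITGA5, ITGA6, ITPR1, ELL2 and FLG, and the 5 were ERAP1, PKP2, CD68, CCNT1 and ITPR1. Only genes that were not called reversed. With the trend removed these were UBE2L6 (-0.12), KRT17 (-0.20), CD151 (-0.088), UBE2C (-0.29) and PERP (0.10), with upper quartile scaling PLEC (0.0419) and PERP (0.10). With 1 library left out PERP ranged from -0.3825 to 0.0293, the latter without siBRDT replicate 2, and BRD3 from -0.0306, without siCont replicate 1, to 0.117.

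No shared effect of the replicate number was visible, which with 2 libraries a group cannot show how same-numbered samples were handled. The correlation of same-numbered deviations was -0.084 between siCont and siBRDT, 0.028 between siCont and siTP63 and -0.03 between siBRDT and siTP63. With the replicate number as a block 2397 genes were lower and 2045 higher, 2776 were lower and 2419 higher in TE6 than in KYSE180, and BRDT stayed at -2.23.

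With 2 libraries a group the fits rest on few degrees of freedom. The interferon genes and most germ-cell genes were under the minimum mean and were not tested.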
